A study of Mus musculus with 2 samples.

Results

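The Krüppel-like factors (KLFs) examined here were 10 genes, Klf2, Klf3, Klf4, Klf5, Klf6, Klf7, Klf10, Klf11, Klf13 and Klf15, chosen by name among 37074 gene names on the array. They were carried by 18 probes. They were measured in the mouse line mDE6, of odontogenic epithelial cells, on 1 array of control cells and 1 array of cells treated for 6 h with CHIR99021, an inhibitor of GSK-3 that activates the β-catenin pathway. The labels name DMSO for the control and give the dose of CHIR99021 as 5 mM, whereas the paper's text gives it in μM and calls the control untreated. With 1 array of each, no difference has a replicate check, no test was possible, and condition and array cannot be told apart.

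KLFs are transcription factors whose zinc fingers at the carboxyl end bind GC-rich and CACCC elements, the same elements that Sp factors bind. Family members differ mainly outside the zinc fingers: one branch (Klf2, Klf4, Klf5, Klf6, Klf7) carries activation domains that can recruit acetyltransferases, a branch with Klf3 binds the corepressor CtBP, and a branch with Klf10, Klf11 and Klf13 binds the corepressor Sin3a. In epithelia, Klf4 is known for barrier formation and differentiation and Klf5 for proliferating basal cells, while Klf2 is best known from endothelium and lymphocytes.

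The shared zinc fingers are visible in the array's own probes. The probes of Klf5 and Klf13 are shown because both lie in zinc finger coding sequence; capitals mark the 29 of 40 aligned bases that they share. The Klf5 probe spanned a splice junction (mm9, chr14:99702656-99712388, plus strand), and the Klf13 probe lay at chr7:71082854-71082913 on the minus strand. How far a probe of 1 member also captures RNA of another was not measured.
Klf5 probe A_51_P507290: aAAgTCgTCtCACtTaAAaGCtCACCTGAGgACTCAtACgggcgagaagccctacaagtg
Klf13 probe A_55_P2022082: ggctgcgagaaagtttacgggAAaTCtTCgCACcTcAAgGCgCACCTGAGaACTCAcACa

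The 250 bases before the start sites of Klf2 and Klf6 are shown because these genes had the lowest ratios among members measured on both arrays. They are RefSeq sequence of GRCm38.p6, at chr8:72318812-72319061 for Klf2 and chr13:5861239-5861488 for Klf6, both on the plus strand. Capitals mark GGGCGG (the GC box), CACCC (the KLF element) and, in Klf2, the MEF2 box CTAAATTTAG, each searched on both strands.
Klf2 promoter: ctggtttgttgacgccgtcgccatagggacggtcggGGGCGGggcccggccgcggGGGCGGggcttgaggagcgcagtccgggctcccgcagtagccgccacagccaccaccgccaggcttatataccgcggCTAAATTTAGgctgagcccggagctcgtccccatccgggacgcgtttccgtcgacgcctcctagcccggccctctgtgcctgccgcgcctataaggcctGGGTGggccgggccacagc
Klf6 promoter: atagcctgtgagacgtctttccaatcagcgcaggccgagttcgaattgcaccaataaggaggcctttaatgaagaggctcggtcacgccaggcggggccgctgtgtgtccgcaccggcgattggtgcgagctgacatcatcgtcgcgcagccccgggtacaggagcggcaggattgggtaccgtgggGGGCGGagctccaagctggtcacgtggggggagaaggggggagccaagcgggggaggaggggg
Promoters from 250 bases before to 50 bases after the start were found for 8 members. GGGCGG was in 8 of these 8, against 35.7% of all 32851 promoters, and CACCC was in 5 of 8, against 57.5%. The MEF2 box, the element through which the kinase ERK5 is known to induce Klf2, was in 1 of 8, Klf2, 118 bases before the start, against 0.557% of all promoters. The TCF/LEF element CTTTGAT was in 0 of 8, against 3.73%, and the CArG box, bound by serum response factor, was in 0 of 8, against 1.63%. These matches are a description of the letters in the window.

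Of the 18 KLF probes, 14 were well above background on both arrays, 1 on the control array alone and 3 on neither. All 10 members had a probe well above background on at least 1 array, and 9 members, all but Klf11, had a probe well above background on both. Among those 9, 7 were lower and 2 were higher in CHIR99021-treated cells, where 44.9% of the 16886 genes measured on both arrays were lower. Their median log2 ratio (CHIR99021 over control, each array scaled to its 75th percentile) was -0.24, a ratio of 0.846. The median over all genes measured on both arrays was 0.03, with quartiles at -0.18 and 0.22. The highest-signal probe of each gene was used for these counts. The 10 members were chosen with earlier results of these data known. Klf9 and Klf16, outside the list and measured on both arrays, were higher, at ratios of 1.06 and 1.24.

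**Figure D1:**
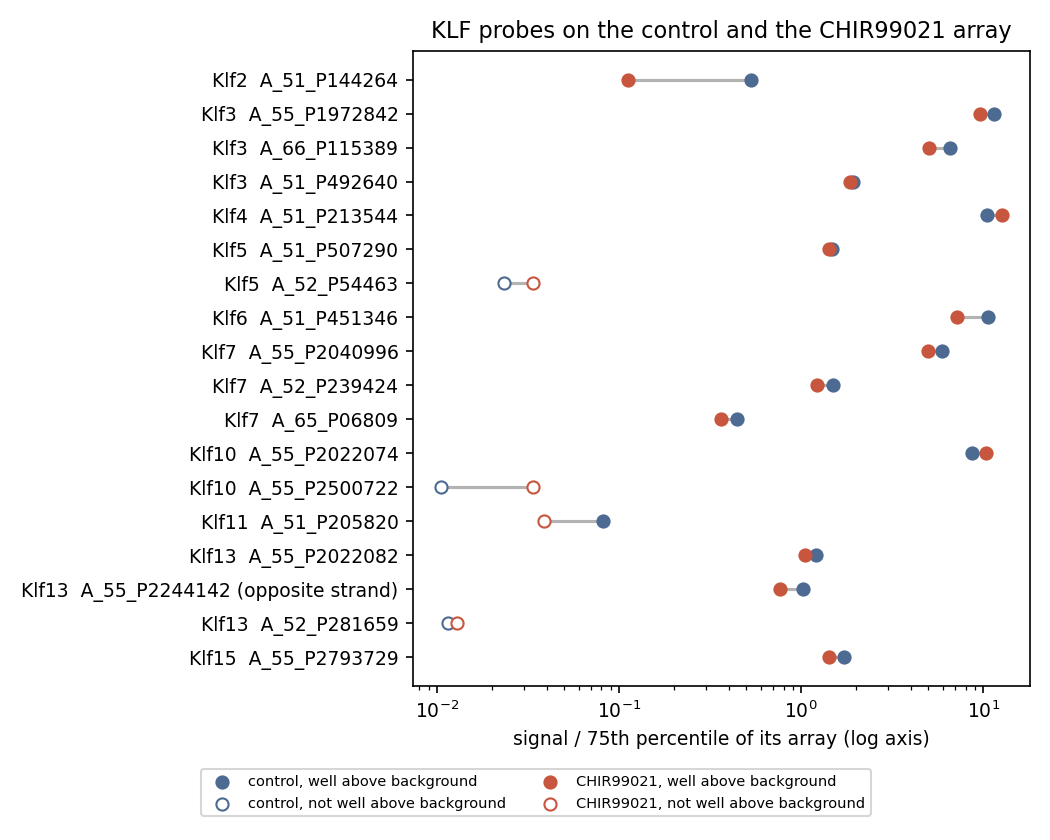
Signal of each of the 18 KLF probes on the control and the CHIR99021 array, divided by the 75th percentile of its array (log axis). Filled points were well above background and open points were not. The Klf2 points lie farthest apart among probes filled on both arrays, and signals are to be compared within a probe, not between probes.

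Klf2 stood apart from the other members. Klf2 was 4.73-fold lower after CHIR99021, whereas every other member measured on both arrays lay between a log2 ratio of -0.57 and 0.28. The criteria for a lower probe were a ratio no greater than 0.66 and a Z-score no greater than -2.0. The Z-score sets a log2 ratio against those of the 500 probes nearest in mean signal. By these criteria 1 KLF probe was lower, that of Klf2, where 2.73% of 28066 tested probes were lower. No KLF probe met the higher criteria, with the ratio from 1.5 and the Z-score from 2.0 upwards, which 2.39% of tested probes met. By the ratio alone, 1 of the 9 members was at or under 0.66 on both arrays, where 5.76% of genes were, and 0 were at or over 1.5, where 5.06% were. Over all 10 members, 0 were at or over 1.5, where 8.05% of tested genes were.

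The single Klf2 probe (A_51_P144264, mm9, chr8:74845137-74845196, plus strand) had an intensity of 258 in control and 52.5 in CHIR99021-treated cells. After scaling, the Klf2 signal was 0.529 and 0.112 of the 75th percentile, and it was well above background on both arrays. The ratio was 0.211, a log2 ratio of -2.24. The error of this log2 ratio from the scanner software's error model, which covers measurement error and not cultures, was 0.26, so the difference was 8.75 times its error. The Z-score was -3.60, and 5 of the 500 probes of like signal had a lower ratio. Among the 16886 genes measured on both arrays, Klf2 ranked 19 from the lowest. Its treated signal of 52.5 was not far above 26.3, the lowest signal well above background on that array. The size of the Klf2 fold therefore depends on the background correction, and the normexp value is given below.

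The Klf2 spot lay in row 2 of the array, near its edge. Of the 1277 tested probes with a ratio over 4-fold, 92.9% were in the later rows, which held 51.6% of tested probes. Of the 18 KLF probes, 8 also lay in the later rows. Among these were the highest-signal probes of Klf3, Klf5, Klf7, Klf10, Klf11 and Klf15. With the earlier rows alone, the log2 ratio moved from -0.24 to -0.40 for Klf3 and from -0.25 to -0.29 for Klf7, each at another probe. Klf5, Klf10, Klf11 and Klf15 then had no value. The part of spot position in the KLF ratios was not tested. Within 3 rows and columns of the Klf2 spot, 10 spots were well above background on both arrays, with log2 ratios between -0.12 and 0.38 and a median of 0.02. None of the spots there was an on/off spot over 4-fold, that is, measured on 1 array alone. The normexp background correction raised the Klf2 ratio to 0.381, the highest of 17 settings, and it was at or under 0.66 in 17 of 17. Klf2 has 1 probe, and the settings of filters, spots used and choice of probe left its ratio unchanged. Over the 9 settings of scaling and background correction, the main one included, the Klf2 ratio ran from 0.204 to 0.381.

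Markers of the cell types in which Klf2 is best known were also read. Of 4 endothelial markers, Cdh5, Kdr and Tek were well above background on neither array and Pecam1 was so on the control array alone. Of 4 leukocyte markers, 4 were well above background on both arrays, with ratios of 1.24 for Cd68, 1.07 for Ptprc, 0.881 for Cd3e and 0.862 for Itgam. Their summed signal was 18.1 times the 75th percentile in control and 16.7 times in CHIR99021-treated cells, and most of it came from the Itgam probe. Their part in the Klf2 difference was not tested. In RNA from bulk cells, fewer cells that express a gene and less RNA per cell cannot be told apart.

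**Figure D2:**
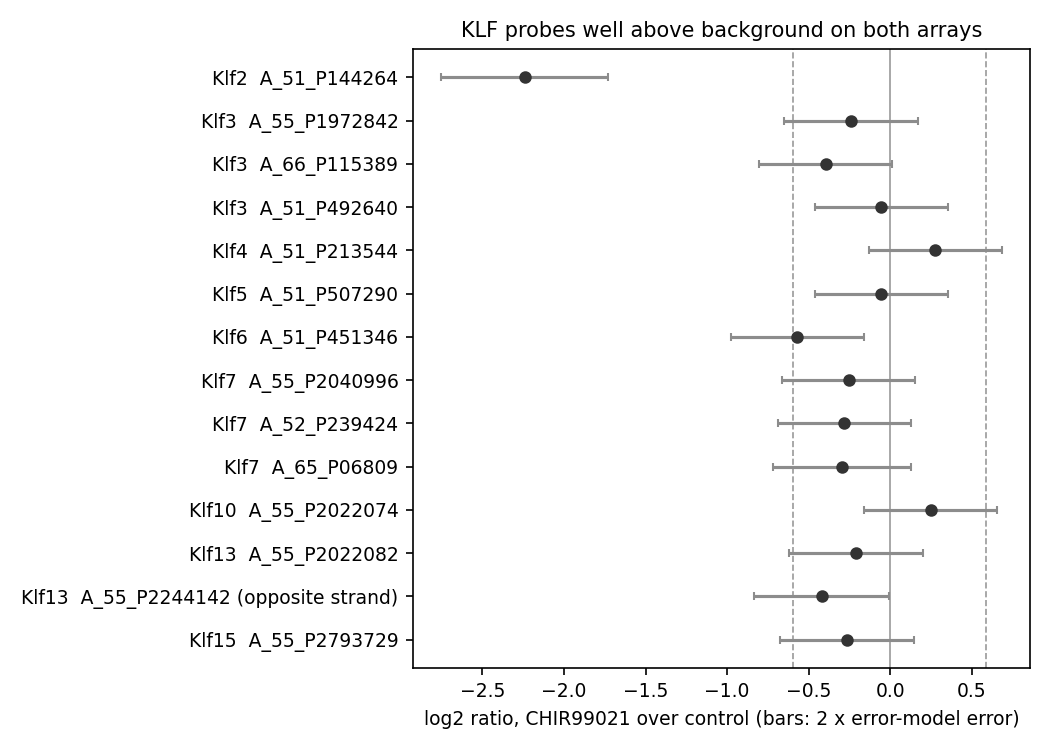
Log2 ratio (CHIR99021 over control) of the 14 KLF probes well above background on both arrays; bars are 2 errors of the scanner software's error model to each side, which leave out culture-to-culture error. Dashed lines mark ratios of 0.66 and 1.5. The bars of Klf2 and Klf6 and of the opposite-strand Klf13 probe do not reach 0.

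Klf6, an activator known as a suppressor of cell growth, was the next lowest of the members measured on both arrays. The Klf6 probe (A_51_P451346, chr13:5869371-5869430, plus strand) gave 5182 in control and 3363 in CHIR99021-treated cells. The Klf6 ratio was 0.673, a log2 ratio of -0.57 with an error-model error of 0.20. Its Z-score was -2.19, with 9 of the 500 probes of like signal lower. Klf6 thus lay just outside the ratio of 0.66 while its Z-score was inside -2.0. Under 5 settings, listed with the processing alternatives, the Klf6 ratio was at or under 0.66, and over all 17 settings it ranged from 0.642 to 0.692. The 21 measured spots around the Klf6 spot had a median log2 ratio of 0.09.

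Klf4, the closest relative of Klf2, differed from it in direction. The Klf4 probe (A_51_P213544, chr4:55540833-55540892, minus strand) gave 5081 in control and 5927 in CHIR99021-treated cells, a ratio of 1.21. The Klf4 log2 ratio of 0.28 was 1.35 times its error. Across the settings the Klf4 ratio stayed between 1.13 and 1.24, so that Klf4 was higher where Klf2 was lower in each of them, although the Klf4 difference itself was under 2 errors.

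The other activator-branch members, Klf5 and Klf7, had ratios below 1 that met no criterion. Klf5 gave 720 in control and 669 in CHIR99021-treated cells at the junction-spanning probe shown above, a ratio of 0.963, which was 0.269 errors from 0 on the log2 scale. A further Klf5 probe (A_52_P54463), which lay inside the genomic span of the first, was well above background on neither array. Klf7, known for its part in the development of neurons, was read by 3 probes. The brightest (A_55_P2040996) gave 2895 and 2339, a ratio of 0.838. The next Klf7 probe (A_52_P239424) gave 725 and 575, a ratio of 0.823. The third Klf7 probe (A_65_P06809) gave 217 and 170.5, a ratio of 0.815. The Klf7 probes thus differed little in ratio, with a mean log2 ratio of -0.28 and an SD over probes of 0.02, although each lay within 2 errors of 0. Probes of a gene share the same RNA sample, so their SD is not a replicate error.

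Klf3, the member that represses through CtBP, was also read by 3 probes, which spread more widely. The brightest Klf3 probe (A_55_P1972842) gave 5555 in control and 4531 in CHIR99021-treated cells, a ratio of 0.846. The Klf3 probe A_66_P115389 gave 3214 and 2353, a ratio of 0.759. The Klf3 probe A_51_P492640, which spanned a splice junction, gave 938 and 870.3, a ratio of 0.963. The mean log2 ratio over the Klf3 probes was -0.23 with an SD of 0.17, and none was over 2 errors from 0.

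The Sin3a-binding branch held no member that met the criteria. Klf10, known as a gene induced early by TGF-β, gave 4233 in control and 4846 in CHIR99021-treated cells, a ratio of 1.19 and a log2 ratio of 0.25, which was 1.22 times its error. Its further probe (A_55_P2500722) was well above background on neither array. Klf11, a related TGF-β-inducible gene, gave 39.8 in control and 18.1 in CHIR99021-treated cells, and the latter was not well above background. Klf11 was therefore at least 1.46-fold lower, where the limit is the control signal over the lowest signal well above background on the CHIR99021 array. This limit does not reach a ratio of 0.66, and it holds for the signals as deposited: with the normexp correction the Klf11 ratio was 0.811. By computed ratios, 2 of 10 members, Klf2 and Klf11 (0.473), were at or under 0.66, where 9.67% of 18837 tested genes were, but that of Klf11 rests on a signal not well above background. Without Klf11 the count was 1. The Z-score of Klf11 was -0.49 and 5 on/off spots over 4-fold lay within 3 rows and columns of its spot.

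Klf13 is known for its part in T cells and the heart. The Klf13 probe in zinc finger coding sequence gave 588 in control and 489.8 in CHIR99021-treated cells, a ratio of 0.864 and 1.03 errors below 0 on the log2 scale. A probe that the array names Klf13 (A_55_P2244142, chr7:71032482-71032541) was placed on the plus strand, whereas RefSeq has Klf13 on the minus strand. That opposite-strand probe gave 498 and 359, a ratio of 0.747 and a log2 ratio of -0.42, and it is not read here as Klf13 mRNA. The third Klf13 probe (A_52_P281659) was well above background on neither array.

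Klf15, which is known for metabolic control in muscle and liver and belongs to none of the branches above, gave 832 in control and 667 in CHIR99021-treated cells. The Klf15 ratio of 0.832 was -0.27 on the log2 scale, and its Z-score was -0.71. In all, 3 of the 14 probes measured on both arrays were over 2 errors from 0: those of Klf2 and Klf6 and the opposite-strand Klf13 probe. Of the 24742 probes printed once and measured on both arrays, 19.5% were, so that this count is near the background.

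**Figure D3:**
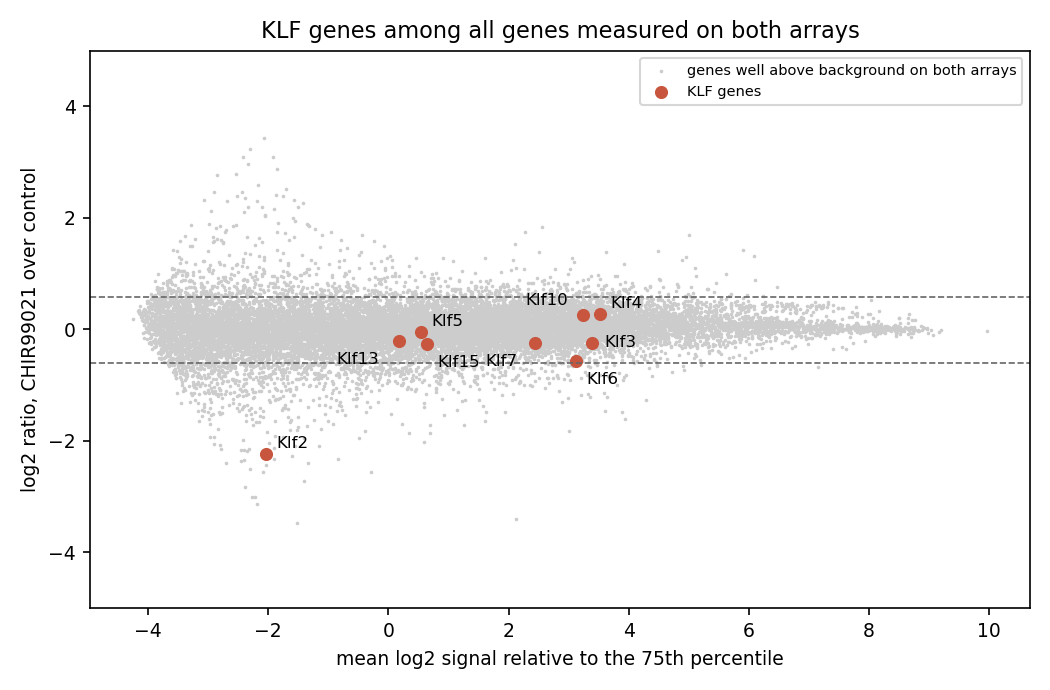
Log2 ratio (CHIR99021 over control) against mean log2 signal relative to the 75th percentile for the 16886 genes measured on both arrays (grey) and the 9 KLF genes among them (red). Dashed lines mark ratios of 0.66 and 1.5. Klf2 lies at the lower edge of the cloud, and Klf6 lies near the lower dashed line at a higher signal.

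The rest of the KLF family was mostly below detection. Of 7 further Klf genes, 2 were well above background on both arrays and 4, Klf1, Klf8, Klf14 and Klf17, on neither. Klf9, a glucocorticoid-induced member, gave 1878 in control and 1924 in CHIR99021-treated cells, a ratio of 1.06, and its second probe gave a ratio of 1.04. Klf16, a GC-box repressor, gave 1475 and 1763, a ratio of 1.24. Klf12, which like Klf3 binds CtBP, was well above background at 1 of its probes on the control array alone, where its limit was at least 1.03-fold lower.

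The Sp factors, which share the KLF binding elements, included no gene past the folds on both arrays. By background, 5.76% of genes were at or under 0.66 and 5.06% at or over 1.5. Of 9 Sp genes, 5 were measured on both arrays, 2 higher and 3 lower, with a median ratio of 0.934, where 44.9% of genes were lower. The Sp ratios ran from 0.70 for Sp7, a factor of osteoblasts and odontoblasts, to 1.31 for Sp8. Sp4 was measured in control cells alone and was at least 1.51-fold lower, and Sp5, Sp6 and Sp9 were well above background on neither array. Sp6 is the epithelial Sp factor known from tooth development.

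Genes that act with or upstream of KLFs were measured in full, with 15 of 15 well above background on both arrays. Of these, 8 were higher and 7 lower, with a median ratio of 1.09, where 44.9% of genes measured on both arrays were lower. The only gene of this list past a fold was Kat2b, an acetyltransferase known to act with KLFs, at 166 in control and 104 in CHIR99021-treated cells, a ratio of 0.650. Its Z-score was -1.14. The acetyltransferase genes Ep300 and Crebbp had ratios of 0.894 and 1.26, and the corepressor genes Ctbp1, Ctbp2 and Sin3a had ratios of 1.09, 0.960 and 0.831. Some further genes of this list are named after their values were seen. For the kinase and MEF2 genes the ratio was 1.29 for Mapk7 (which encodes ERK5), 1.31 for Mef2a, 1.31 for Mef2c and 1.19 for Mef2d. Fbxw7, whose product marks Klf2 and Klf5 proteins for degradation, was at 1.33, and Wwp1, a ligase for the same proteins, at 0.936. None of these reached 1.5, and none met the Z-score criterion.

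Genes reported as KLF targets in other cells held no gene past the folds, where 5.76% of genes were at or under 0.66 and 5.06% at or over 1.5. Of 18 targets, 15 were measured on both arrays, 9 higher and 6 lower, with a median ratio of 1.04. Over all genes measured on both arrays, 44.9% were lower. The lowest was Nos3, the endothelial nitric oxide synthase that Klf2 is known to induce, at 210.0 in control and 136 in CHIR99021-treated cells, a ratio of 0.671. Thbd and S1pr1, both also known as induced by Klf2, had ratios of 1.13 and 1.17. The highest was Smad7, a TGF-β pathway inhibitor, at 1.26. Cdh1, Ivl and Slc2a4 were well above background on neither array.

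**Figure D4:**
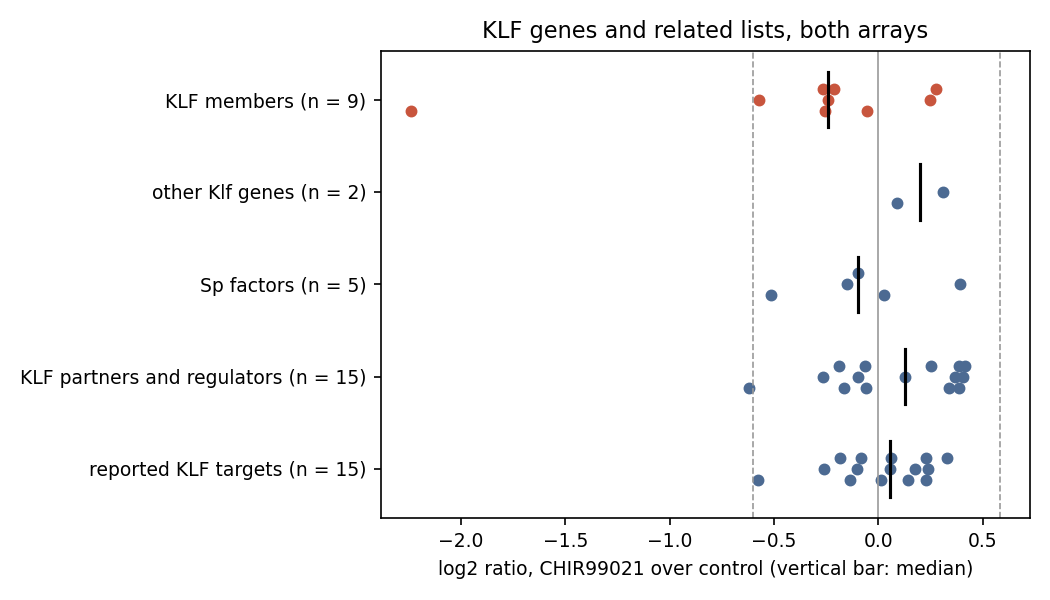
Log2 ratio (CHIR99021 over control) of genes measured on both arrays: the 9 KLF members, 2 other Klf genes, 5 Sp factors, 15 partners and regulators and 15 reported targets. Each point is 1 gene, vertical bars are medians and dashed lines mark ratios of 0.66 and 1.5. Klf2 is the only point below -1.

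The arrays as a whole were alike in brightness. Of 59305 spots, 49.8% of those in control and 48.3% of those in CHIR99021-treated cells were well above background and 0 were saturated. Among 264 probes printed 10 times, the spot-to-spot SD of the log2 ratio had a median of 0.03. Lef1, a target of the β-catenin pathway, was 3.0-fold higher in CHIR99021-treated cells, and Axin2, another, was well above background on the CHIR99021 array alone and at least 1.66-fold higher. Of 10 epithelial markers, 2 (Krt14, Trp63) were measured on both arrays, 3 on 1 array and 5 on neither (Cdh1, Epcam, Krt8, Krt19, Dsp), and the summed signal of Krt14 and Trp63 was 4.84 times the 75th percentile in control and 6.29 times in treated cells. Of the 3 on 1 array, Krt18 and Cldn1 were measured in control cells alone. Krt5 was measured in treated cells alone, at 5.51 in control and 165 in treated cells, a limit of at least 7.24-fold higher. The spots around the Krt5 probe were not examined, so that limit rests on the intensities of this probe alone. Of 7 mesenchymal markers, 7 were measured on both, with sums of 970.3 and 914, most of it from Col1a1 and Col1a2. Twist1 was higher, at a ratio of 1.55, Prrx1 was at 1.01, and the remaining 5 had ratios between 0.785 and 0.982. The part of these markers in the KLF ratios was not tested.

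**Figure D5:**
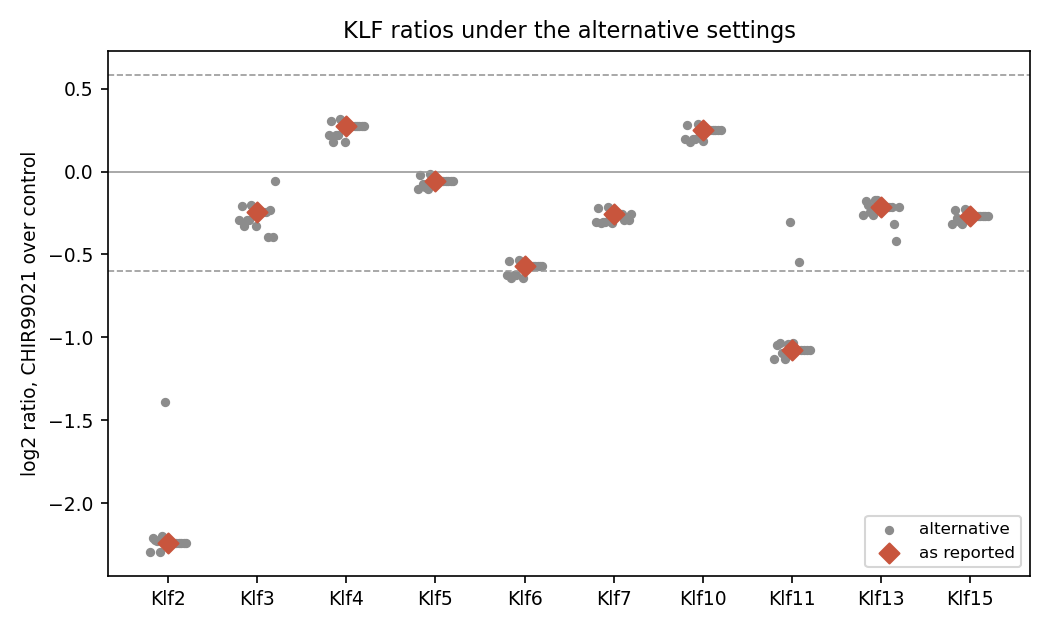
Log2 ratio (CHIR99021 over control) of each KLF gene as reported (diamonds) and under each alternative setting (grey points, up to 16 per gene). Dashed lines mark ratios of 0.66 and 1.5. No gene crosses 0; Klf6 and Klf11, which has only a limit, cross the lower dashed line, and the grey point far above the Klf2 diamond is the normexp correction.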

How the data were processed

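RNA of 1 control and 1 CHIR99021-treated culture of mDE6 cells was labelled with Cy3 and hybridised to Agilent arrays. The deposited intensity values are per spot, background-subtracted and not normalized between arrays. The file header names Feature Extraction 10.7.1.1, a mouse design and build mm9, whereas the submitters' processing notes name version 9.5.1.1 and the paper a human array. A table of intensity values normalized by the authors (method not given in the sources used here; both columns had a median of 20.4) was used as an alternative.

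Here, control spots and outlier flags were removed, repeated spots were averaged by probe and each array was divided by its 75th percentile (487 for control, 469 for CHIR99021) using pandas 2.3.3 and numpy 2.4.6 in Python 3.11.15. The 28066 probes that were well above background on either array or both were tested. A gene with several probes was represented by that of highest mean signal. For a probe measured on 1 array alone, the fold is a limit, computed after scaling. It is set against the lowest signal well above background on the other array (23.7 for control, 26.3 for CHIR99021, before scaling), or the probe's own signal there if higher. The ratio limit for lower probes is that of the paper's methods. They print the Z-score limit without a minus sign; a negative limit was applied here. The Z-score was computed here, and the criteria for higher probes were added here. The calling code was tested on simulated data with known ratios, which checks the code and not these arrays. The number of arrays limits the precision.

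The members and lists were chosen with earlier results of these data known. The rule named every member with each of its probes, genes of the Klf, Sp, partner and target lists past a fold on both arrays, other Klf genes well above background, and Lef1 and Axin2. One marker of the epithelial list is not reported here. Of 18 probe accessions, 13 matched the RefSeq gene table, each with the same symbol. Alternatives covered scaling, background correction (normexp in limma 3.58.1 under R 4.3.3, offset 50), filters, spots used, Z-scores and the choice of probe. Figures were drawn with matplotlib 3.10.9.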

Additional observations from a re-analysis of the deposited data

How the results depend on the processing

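No paired analysis was possible because there was only 1 array of each condition. The count of members at least 1.5-fold higher was 0 in each setting, and each of the 10 members kept its direction in each of the 15 to 17 settings that gave it a value. For a member with 1 tested probe, the choice of probe could not change its ratio. The count of members at a ratio of at most 0.66 was 2 as reported and 1 with normexp, with a floor on low signals, with only those probes measured on both arrays, or with the earlier rows alone. These 4 settings dropped Klf11, which has only a limit and lies in a later row. The count was 3, with Klf6 added, when the 75th percentile was taken over probes measured on both arrays, with quantile normalization, with cyclic loess, without scaling and with the authors' table. The count of probes meeting both criteria was 1 as reported and became 2, with Klf6 added, in these 5 settings. It was also 2 with the ratio criterion alone, which adds Klf11.

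The median log2 ratio of the members was -0.25 over all 10, Klf11 by its computed ratio included, and -0.24 over the 9 measured on both arrays. It was -0.30 with the percentile over detected probes, with cyclic loess and without scaling, -0.29 with quantile normalization and with the authors' table, -0.22 with median scaling and -0.21 with spike-in scaling. It was -0.35 with the earlier rows alone, which hold 6 members, and -0.35 with the lowest-ratio probe of each gene, which for Klf13 is the opposite-strand probe. Over these scalings the median of all tested genes lay between -0.03 and 0.06, against 0.02 as reported. Klf11, Klf12 and Sp4 were well above background on 1 array alone and have limits rather than ratios. The causes of the other shifts were not tested.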
